A study of Homo sapiens
Mus musculus with 5 samples.

Results

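Cadherins and protocadherins are cell surface proteins that hold cells together through calcium-dependent domains outside the cell. Their genes were followed in tumors of H2030-BrM3, a human line of lung adenocarcinoma that was picked for its ability to colonize brain, in the cancer cells and in the mouse tissue around them. The members were all genes whose symbol was CDH or CDHR with a number, PCDH with a number (with or without X), or the start of a clustered protocadherin symbol (PCDHA, PCDHB or PCDHG). This rule took 183 of 50152 genes, 86 of the 25524 human genes and 97 of the 24628 mouse genes. Human genes were read as the cancer cells and mouse genes as the host, and both tables came from the same 5 RNA sequencing libraries. They were made from 3 brain tumors and from 2 orthotopic lung tumors, which, per the labels, were seeded with cells through the trachea. The hosts of both groups were athymic nu/nu mice, whose missing thymus leaves them without mature T cells, and both groups came from the same cell line. The labels give no age or sex of the mice, and the route by which the brain tumors were seeded is not given in the sources used here. Nothing in the labels ties each tumor to an animal of its own, so the p-values reflect the spread between these samples alone, which may be technical.

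Classical cadherins bind a cadherin on the next cell, often the same kind, and hold on to the actin skeleton through catenins. Type I members such as E-cadherin (CDH1) and N-cadherin (CDH2) give strong junctions in epithelia and in neural and connective tissue, and a switch from E-cadherin to N-cadherin is a textbook sign of epithelial-mesenchymal transition. Type II members mark particular groups of neurons, endothelium (CDH5) or mesenchyme (CDH11). Clustered protocadherins are arrays of genes in which each neuron uses a few members, so that it can tell its own branches from those of other cells, and the delta protocadherins steer axons and synapses. No nucleotide or protein sequence of a member was used here.

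The libraries differed in depth and in their share of human reads, which bears on every value that follows. Reads recovered from the deposited values numbered 2445463 to 8418107 per brain tumor and 3732962 to 6540133 per lung tumor for human genes. For mouse genes the range was 2710617 to 8634688 per brain tumor, while lung tumor 1 gave 231044 reads and lung tumor 2 gave 5293736. Of all reads, the human ones made up 75.6%, 56.5% and 22.1% in brain tumors 1, 2 and 3, against 96.6% and 41.4% in lung tumors 1 and 2. Over all mouse members the reads summed to 5520, 11714 and 17266 in brain tumors, against 82 in lung tumor 1 and 13486 in lung tumor 2. In lung tumor 1, 69 of the 97 mouse members were listed at 0, so an absent gene could not be told from a low one at this depth. In the same library the longest 20% of the tested genes also lay below their gene means, with medians of -0.53 (human) and -0.82 (mouse) on the log2(RPKM + 1) scale. The members are long genes: the median length implied by the values was 2890 bases for the tested human members and 916 for all tested human genes. Mouse markers of neurons summed to 1646 to 2552 RPKM in brain tumors and to 33.4 and 36.1 RPKM in lung tumors. Mouse markers of lung epithelium summed to 50.8 to 93.1 RPKM in brain tumors, against 985 RPKM in lung tumor 1 and 65440 RPKM in lung tumor 2, with Aqp5 at 0 in brain tumor 1 and Sftpd at 0 in lung tumor 1. Among the human epithelial markers KRT8, KRT18 and EPCAM were present in every library, while KRT7 was at 5.36 RPKM or less and KRT19 at 0.458 RPKM or less.

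The first comparison asked how the members differed between brain and lung tumors in the cancer cells. CDH11, PCDHB2 and PCDH7 had the highest levels, and 26 of the 31 tested human members had a higher mean log level in brain tumors (55.6% of all tested human genes did), but 0 passed the test. RPKM, the number of reads relative to gene length and sequencing depth, was compared as log2(RPKM + 1) with limma over 14423 human genes that reached an RPKM of 1 in at least 2 libraries. A gene was called at a Benjamini-Hochberg adjusted p under 0.05. Among all tested human genes 0.00693% were called higher in brain tumors, 1 gene that is not a member, and 0 were called lower. The lowest adjusted p of a member was 0.429. At an unadjusted p under 0.05, 10 members were higher and 0 lower, where 6.16% of all tested genes were higher and 4.36% lower, and limma-voom on the recovered reads called 0 members. Every brain tumor lay above both lung tumors in 20 tested members (17.4% of all tested genes), and every brain tumor lay below both in 1 (12.3% of all tested genes). The median log2 fold change of the tested members was 0.93, against 0.09 over all tested human genes, and it was 0.86 with the 2 members at 0 in both lung tumors set to their bounds. Of the 86 human members 55 were not tested, and 6 of the 31 that were passed the filter through the brain tumors only, so these counts do not describe the whole family. Without lung tumor 2, 8 members passed and all were higher in brain tumors, where 10.1% of all tested genes were called higher, and the lone lung tumor left is the library with low levels of long genes. With a correction of each library for gene length the members' median was 0.61 and 0 passed.

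**Figure D1:**
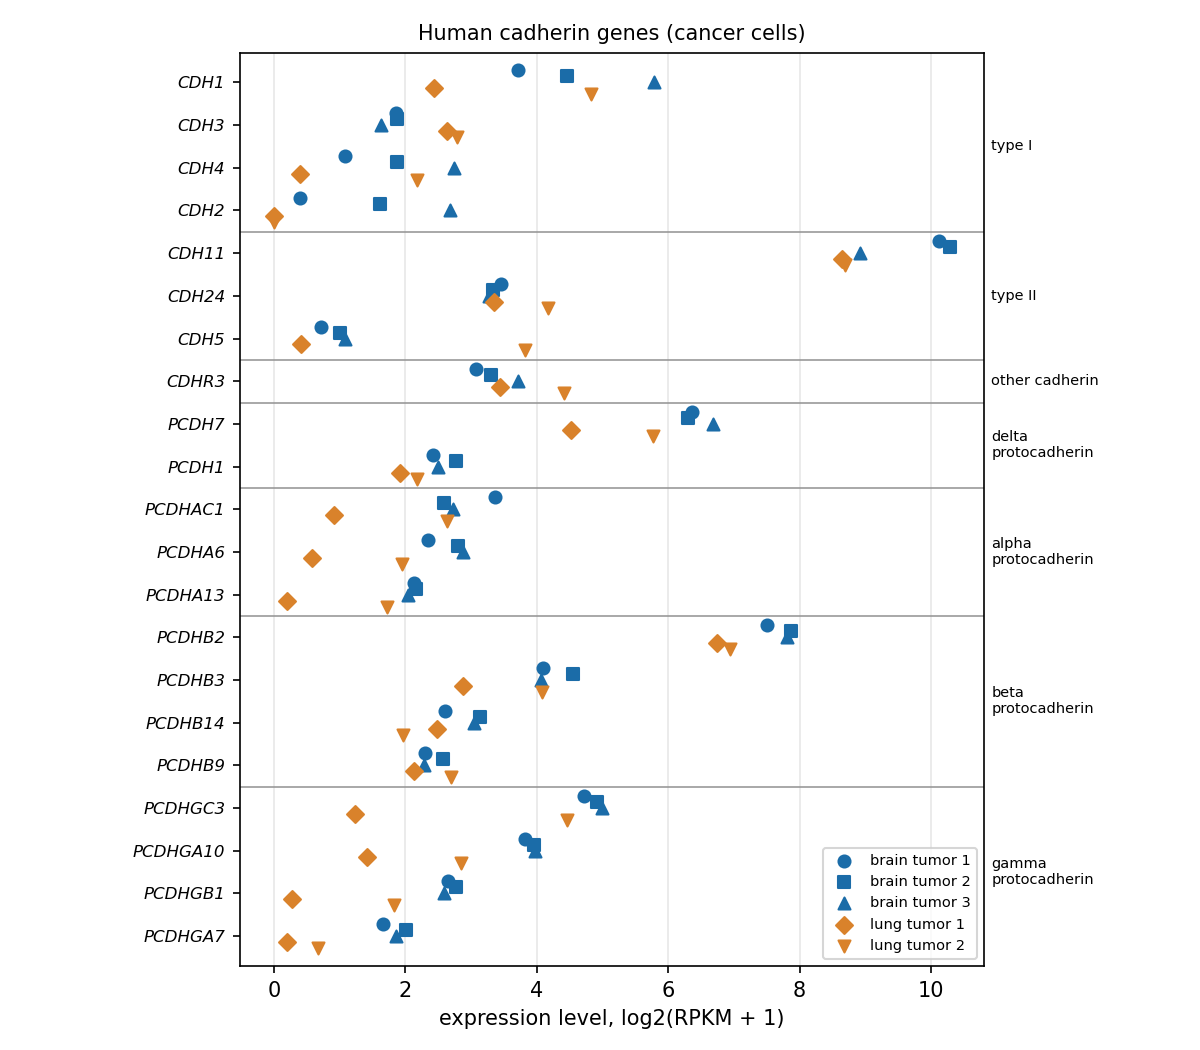
Levels of tested human members picked by class, level and size of change, as log2(RPKM + 1), with 1 symbol per library: 3 brain tumors (blue) and 2 lung tumors (orange), grouped by class. CDH11 lies highest, at 486 to 1253 RPKM in brain tumors and 400 and 412 RPKM in lung tumors, and lung tumor 1 lies lowest in most genes of the alpha and gamma clusters.

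Among type II cadherins CDH11, which joins mesenchymal cells and osteoblasts, dominated the cancer cells. CDH11 (ENSG00000140937.13, chromosome 16 from 64943753 to 65123744 in GRCh38) had 1114, 1253 and 486 RPKM in brain tumors 1, 2 and 3, against 400 and 412 RPKM in lung tumors 1 and 2. The groups did not overlap, but brain tumor 3 lay nearer to the lung tumors than to the other brain tumors. Its mean was 951 ± 409 RPKM in brain tumors (SD, n = 3) and 406 ± 8.41 RPKM in lung tumors (SD, n = 2), and the fitted log2 difference was 1.11 (SE 0.46, limma adjusted p = 0.473). Behind these levels were 5474, 4682 and 691 reads of brain tumors, against 1520 and 899 of lung tumors. The mouse gene Cdh11 stood at 4.03 to 11.3 RPKM in brain tumors and at 14.7 and 42.4 RPKM in lung tumors. CDH24 (ENSG00000139880.19), a less studied type II cadherin, had 10.03, 9.08 and 8.66 RPKM in brain tumors and 9.24 and 17.02 RPKM in lung tumors, so the groups overlapped (log2 fold change -0.41, SE 0.42, limma adjusted p = 0.708). CDH11 made up 97.6% to 99.0% of the summed type II RPKM in brain tumors and 93.2% to 97.6% in lung tumors.

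CDH5, the VE-cadherin of endothelial junctions, was low in 4 of the 5 libraries. Human CDH5 (ENSG00000179776.17) had 0.642, 1.014 and 1.11 RPKM in brain tumors, against 0.332 RPKM in lung tumor 1 and 13.2 RPKM in lung tumor 2. The single high value, from 91 reads, came from the library in which mouse Cdh5 stood at 477 RPKM, from 5601 reads, the highest level of any mouse member. The log2 fold change was -1.18 (SE 0.87, limma adjusted p = 0.591), and it was 0.52 without lung tumor 2. Whether reads of the mouse gene were assigned to the human gene was not tested.

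Of the 4 tested type I cadherins CDH1 and CDH4 overlapped between the groups, while CDH2 and CDH3 did not, and 0 passed the test. CDH1 (ENSG00000039068.18, chromosome 16 from 68737292 to 68835537 in GRCh38), the adhesion protein of epithelia, had 12.2, 21.0 and 54.2 RPKM in brain tumors 1, 2 and 3, against 4.39 and 27.3 RPKM in lung tumors. Brain tumor 3 was highest and lung tumor 1 lowest, and lung tumor 2 lay among the brain tumors. The mean was 29.1 ± 22.1 RPKM in brain tumors (SD, n = 3) and 15.9 ± 16.2 RPKM in lung tumors (SD, n = 2), and the fitted log2 difference was 1.03 (SE 0.79, limma adjusted p = 0.608) that was -0.17 without lung tumor 1. Among the epithelial markers KRT8 and KRT18 were also highest in brain tumor 3, with KRT8 at 428, 459 and 1343 RPKM in brain tumors 1, 2 and 3, against 906 and 831 RPKM in lung tumors. EPCAM did not follow CDH1: it had 116, 29.7 and 73.8 RPKM in brain tumors and 144 and 81.2 RPKM in lung tumors, and was highest in lung tumor 1, where CDH1 was lowest.

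CDH3, the P-cadherin of basal epithelial cells, was the 1 tested human member whose brain tumors all lay below both lung tumors. CDH3 (ENSG00000062038.13) had 2.62, 2.65 and 2.09 RPKM in brain tumors, from 13, 10 and 3 reads, and 5.21 and 5.89 RPKM in lung tumors, from 20 and 13 reads. The difference did not pass the test (log2 fold change -0.93, SE 0.41, limma adjusted p = 0.478). CDH4, the R-cadherin of retina and brain, had 1.12, 2.67 and 5.69 RPKM in brain tumors and 0.317 and 3.55 RPKM in lung tumors, so that the groups overlapped.

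CDH2, the N-cadherin of neural and mesenchymal cells, was near the limit of detection in the cancer cells. Human CDH2 (ENSG00000170558.8) had 0.313, 2.06 and 5.41 RPKM in brain tumors 1, 2 and 3, from 1, 5 and 5 reads, and 0 RPKM in both lung tumors, where 3 reads would be 1.21 and 2.11 RPKM. Mouse Cdh2 stood at 29.6, 35.7 and 28.1 RPKM in the same brain tumors and at 2.23 and 3.86 RPKM in lung tumors. The human level followed the share of mouse reads among the brain tumors, at 24.4%, 43.5% and 77.9% of all reads, and what part of it came from mouse reads was not tested. The fitted log2 fold change was 1.56 (SE 0.65, limma adjusted p = 0.473) and depends on the pseudocount. CDH19, a type II cadherin of Schwann cells and other glia, was also near the limit of detection, with 1, 5 and 1 reads in brain tumors and 0 in lung tumors. It had 0.295, 1.94 and 1.02 RPKM in brain tumors 1, 2 and 3, so it was not highest in brain tumor 3 as CDH2 was. Human CDH13, the T-cadherin that is anchored in the membrane by a lipid, was listed at 0 in all brain tumors and in lung tumor 1, and at 0.297 RPKM in lung tumor 2.

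Of the other human cadherins CDHR3, a cadherin-related protein of airway ciliated cells that serves as a receptor for rhinovirus C, was the 1 tested. CDHR3 (ENSG00000128536.15) had 7.40, 8.88 and 12.1 RPKM in brain tumors and 9.90 and 20.4 RPKM in lung tumors, and the groups overlapped (log2 fold change -0.57, SE 0.46, limma adjusted p = 0.624). CDH26 and CDHR2 stood at 0.555 RPKM or less in every library, and PCDH12, a protocadherin of endothelium, at 0.455 RPKM or less.

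Among the delta protocadherins PCDH7, which has been linked to brain metastasis of lung and breast cancer through contacts with astrocytes, was the main gene of the cancer cells. PCDH7 (ENSG00000169851.15, chromosome 4 from 30720369 to 31146800 in GRCh38) had 81.8, 77.5 and 101 RPKM in brain tumors, against 22.02 RPKM in lung tumor 1 and 53.5 RPKM in lung tumor 2. Every brain tumor lay above both lung tumors, and the lung tumors differed more from each other than the brain tumors did. The mean was 86.9 ± 12.7 RPKM in brain tumors (SD, n = 3) and 37.8 ± 22.2 RPKM in lung tumors (SD, n = 2), and the fitted log2 difference was 1.30 (SE 0.42, limma adjusted p = 0.454). Without lung tumor 2 the adjusted p was 0.0169, and leaving out any other library gave no call. PCDH7 held 92.6% to 94.4% of the summed delta protocadherin RPKM in brain tumors and 88.4% and 93.6% in lung tumors. PCDH1, a protocadherin of airway epithelium, had 4.35, 5.84 and 4.65 RPKM in brain tumors and 2.78 and 3.53 RPKM in lung tumors, with no overlap and a fitted log2 difference of 0.51 (SE 0.42, limma adjusted p = 0.627). The other 6 human delta protocadherins were not tested, and PCDH9, the highest of them, stood at 0.215, 0.170 and 0.519 RPKM in brain tumors and at 0 in lung tumors.

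The clustered protocadherins were the largest group of human members, with 57 genes on chromosome 5 in GRCh38. The alpha genes (15) lie from 140786140 to 141012347, the beta genes (18) from 141094615 to 141249365, and the gamma genes (24) from 141330514 to 141512975. Of the 57 genes 20 were tested and 0 were called. Their median log2 fold change was 0.94, and 19 were positive, beside 55.6% of all tested human genes. At an unadjusted p under 0.05, 7 were higher (6.16% of all tested genes). Every brain tumor lay above both lung tumors in 15 (17.4% of all tested genes). The alpha genes share 3' exons with each other, as do the gamma genes, and the beta genes are close copies, so the split of reads among neighbours is uncertain and rests on a counting rule that is not given in the sources used here. Whether the counting used strand is not given either.

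The beta cluster had the highest level of the 3, and PCDHB2 carried most of it. PCDHB2 (ENSG00000112852.6, chromosome 5 from 141094615 to 141098703) had 181, 233 and 224 RPKM in brain tumors, from 885, 863 and 316 reads, against 106 and 122 RPKM in lung tumors, from 400 and 264 reads. All brain tumors lay above both lung tumors, and here the lung tumors were close to each other. The mean was 213 ± 27.4 RPKM in brain tumors (SD, n = 3) and 114 ± 11.2 RPKM in lung tumors (SD, n = 2), and the fitted log2 difference was 0.89 (SE 0.31, limma adjusted p = 0.467, and 0.0499 without lung tumor 2). PCDHB2 held 78.7% to 80.9% of the summed beta RPKM in brain tumors and 81.5% and 78.1% in lung tumors. Its neighbour PCDHB3 had 16.2, 22.5 and 15.7 RPKM in brain tumors and 6.38 and 15.8 RPKM in lung tumors, so the groups overlapped. PCDHB14 had 5.08, 7.79 and 7.23 RPKM in brain tumors and 4.58 and 2.90 RPKM in lung tumors, and PCDHB9 had 3.95, 4.94 and 3.90 RPKM in brain tumors and 3.40 and 5.50 RPKM in lung tumors. PCDHB14 did not overlap between groups, and PCDHB9, with a log2 fold change of -0.03 (SE 0.43), did.

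In the gamma cluster PCDHGC3, a C-type gene that many cell types use, and the variable gene PCDHGA10 stood out. PCDHGC3 (ENSG00000240184.6) had 25.3, 29.2 and 31.0 RPKM in brain tumors, against 1.34 RPKM in lung tumor 1, from 8 reads, and 21.1 RPKM in lung tumor 2, from 72 reads. Lung tumor 1 was far below all other libraries, and lung tumor 2 was close to the brain tumors (log2 fold change 2.03, SE 0.81, limma adjusted p = 0.471). PCDHGA10 (ENSG00000253846.2) had 13.2, 14.6 and 14.7 RPKM in brain tumors, a mean of 14.2 ± 0.850 (SD, n = 3), against 1.68 and 6.20 RPKM in lung tumors, a mean of 3.94 ± 3.19 (SD, n = 2). Its log2 fold change of 1.79 (SE 0.50) had the lowest adjusted p of the human members, 0.429. PCDHGB1 had 5.29, 5.85 and 5.01 RPKM in brain tumors and 0.208 and 2.54 RPKM in lung tumors, and PCDHGA7 had 2.15, 3.02 and 2.64 RPKM in brain tumors and 0.152 and 0.596 RPKM in lung tumors. In both genes the brain tumors were close to each other and above both lung tumors, of which lung tumor 1 was the lower, with log2 fold changes of 1.62 (SE 0.53) and 1.40 (SE 0.42). Without lung tumor 2, PCDHGC3, PCDHGA10 and PCDHGB1 passed, at limma adjusted p from 0.0159 to 0.022.

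The alpha cluster was lowest, and 3 of its 15 genes were tested. PCDHAC1 had 9.36, 5.03 and 5.63 RPKM in brain tumors, against 0.894 RPKM in lung tumor 1 and 5.22 RPKM in lung tumor 2. PCDHA6 had 4.08, 6.01 and 6.37 RPKM in brain tumors and 0.504 and 2.87 RPKM in lung tumors. PCDHA13 had 3.37, 3.46 and 3.11 RPKM in brain tumors and 0.153 and 2.29 RPKM in lung tumors. Lung tumor 1 was lowest in each of the 3 genes, and PCDHAC1 of lung tumor 2 lay among the brain tumors. The log2 fold changes were 1.12 (SE 0.59), 1.41 (SE 0.52) and 1.15 (SE 0.53) in that order, with limma adjusted p of 0.47 to 0.506, and all 3 passed without lung tumor 2 (0.0361 to 0.0469).

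**Figure D2:**
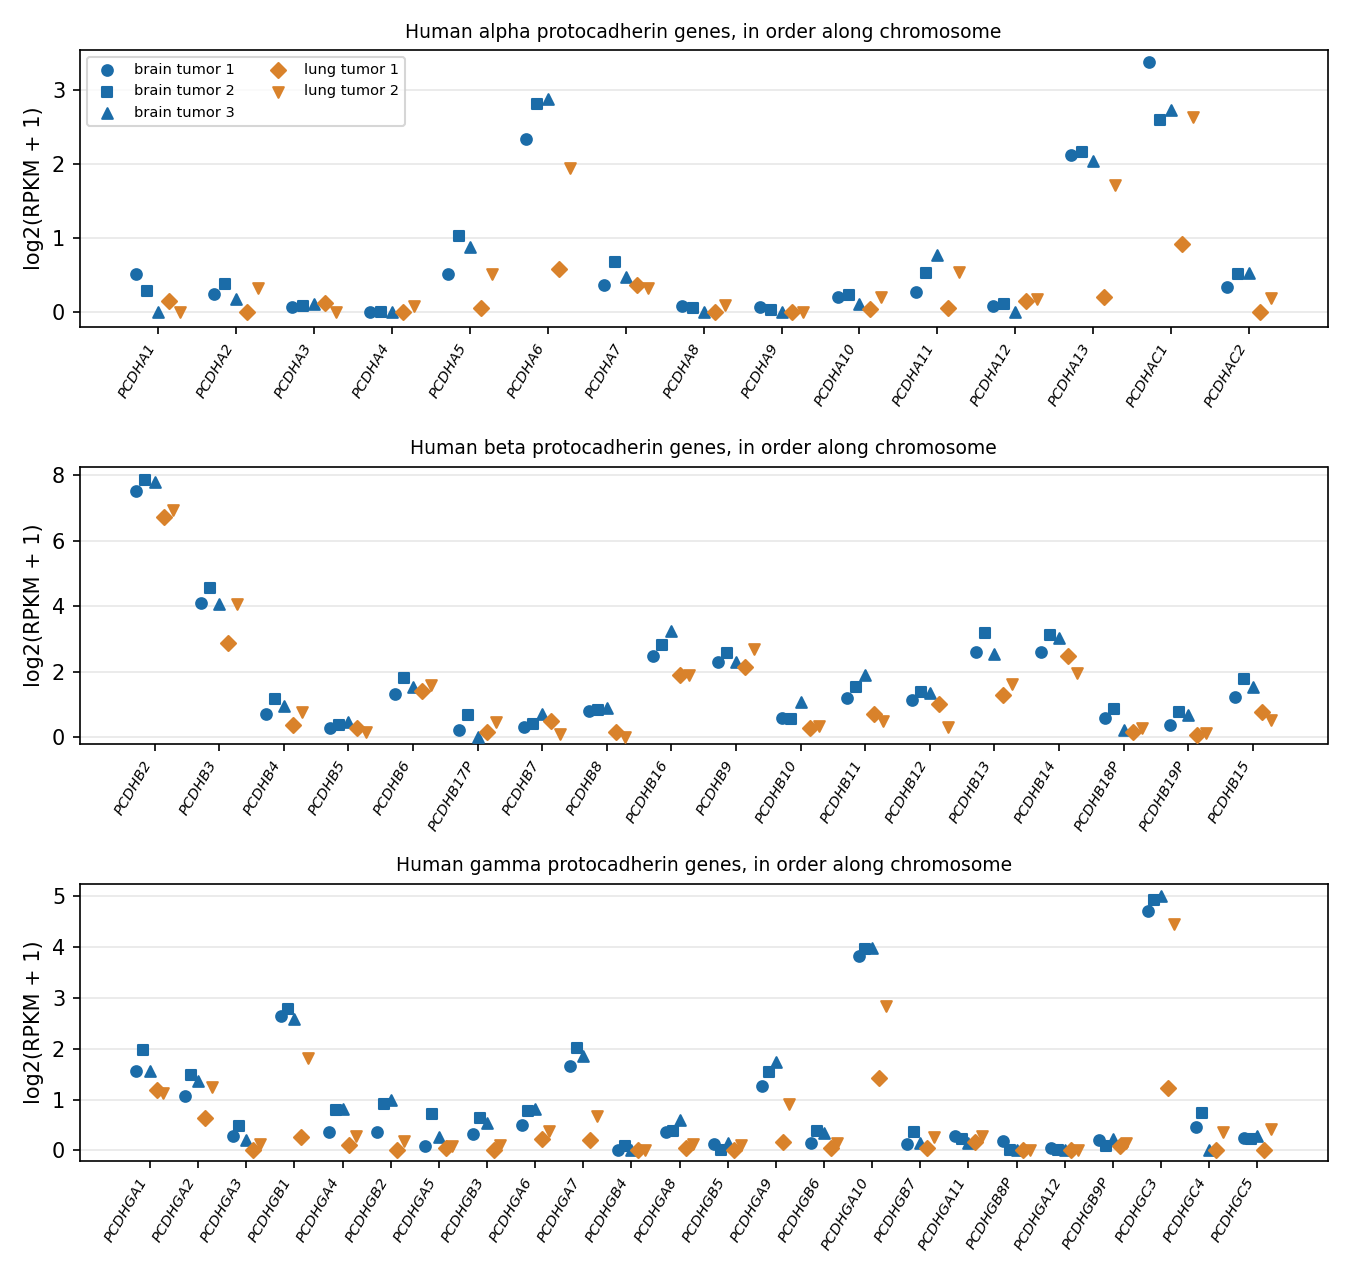
Levels of all 57 human clustered protocadherins as log2(RPKM + 1), in their order along chromosome 5, with 1 symbol per library (brain tumors blue, lung tumors orange). The same few genes stand above their neighbours in each library, such as PCDHB2, PCDHGA10 and PCDHGC3, and most others lie near 0.

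The choice of clustered genes was shared by the libraries. Spearman's rho of the 57 human levels was 0.910 to 0.942 between brain tumors, 0.790 to 0.865 between a brain and a lung tumor, and 0.755 between the lung tumors. These values describe genes of the same cells and share base composition and length, and they are given without a test. In the mouse host the same measure over 57 clustered genes was 0.912 to 0.956 between brain tumors, 0.755 to 0.785 between brain tumors and lung tumor 2, and 0.305 to 0.394 between lung tumor 1 and the others. In lung tumor 1, 46 of these 57 genes were at 0 and all of them together had 12 reads. Its ranks are thus mostly ties and do not show which genes its host used.

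The second comparison asked how the same families differed in the host tissue. The delta protocadherins Pcdh10 and Pcdh9 and the type II cadherin Cdh18 had the largest log2 fold changes of the members that rose in brain tumors, while the endothelial Cdh5 and the epithelial Cdh1 were high in lung tumor 2 alone. Of 73 tested mouse members 26 rose in brain tumors and 0 fell (limma, adjusted p under 0.05 over 15431 genes). Of all tested mouse genes 14.3% rose and 8.12% fell. The log2 fold change was positive in 66 of the 73 members and in 52.5% of all tested mouse genes. The median log2 fold change was 1.31 in the tested members, 1.30 with the 5 members at 0 in both lung tumors set to their bounds, and 0.08 over all tested mouse genes. Every brain tumor lay above both lung tumors in 60 tested members (30.0% of all tested genes) and below both in 2 (26.2% of all tested genes). Of the 97 mouse members 24 were not tested, and 29 of the 73 that were, 14 of the 26 called among them, passed the filter through the brain tumors only, so these counts do not describe the whole family. In bulk tissue, fewer cells of a type and less RNA per cell cannot be told apart, and the neuron, astrocyte and oligodendrocyte markers of the host moved with the same groups. The astrocyte markers summed to 13010 to 14700 RPKM in brain tumors and to 211 and 134 RPKM in lung tumors, the oligodendrocyte markers to 2269 to 4665 RPKM in brain tumors and to 61.1 and 58.9 RPKM in lung tumors. None of these markers was at 0 in a brain tumor, while Rbfox3, Gad2 and Mag were at 0 in lung tumor 1 and Mog in lung tumor 2, and their part in the members' differences was not tested.

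The number of calls depended on each library. Without brain tumor 1, 2 or 3 it was 13, 10 and 12 members, all higher, where 8.06%, 7.02% and 7.35% of all tested genes rose. Without lung tumor 1 it was 29, of which 6 were lower, where 31.0% of all tested genes were called and 14.0% were lower. Without lung tumor 2 it was 50, all higher, where 35.0% of all tested genes rose. Voom on the recovered reads called 28 members higher (13.9% of all tested genes) and 5 lower (13.5%), and gene-length correction called 19 higher (14.1%) and 1 lower (10.5%). Pcdh10, Pcdh11x, Cdh2, Cdh22, Cdh19, Cdh18, Cdh8, Cdh20 and Cdh7 passed with all libraries and with each library left out. All of them but Cdh2 and Cdh22 had passed the filter through the brain tumors only. How many of all tested mouse genes kept a call in this way was not counted. The 6 members that fell without lung tumor 1 were Cdh5, Cdh1, Cdh11, Pcdh12, Pcdh18 and Cdhr4, and in that fit the spread of the 1 lung tumor left was taken to be that of the brain tumors.

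**Figure D3:**
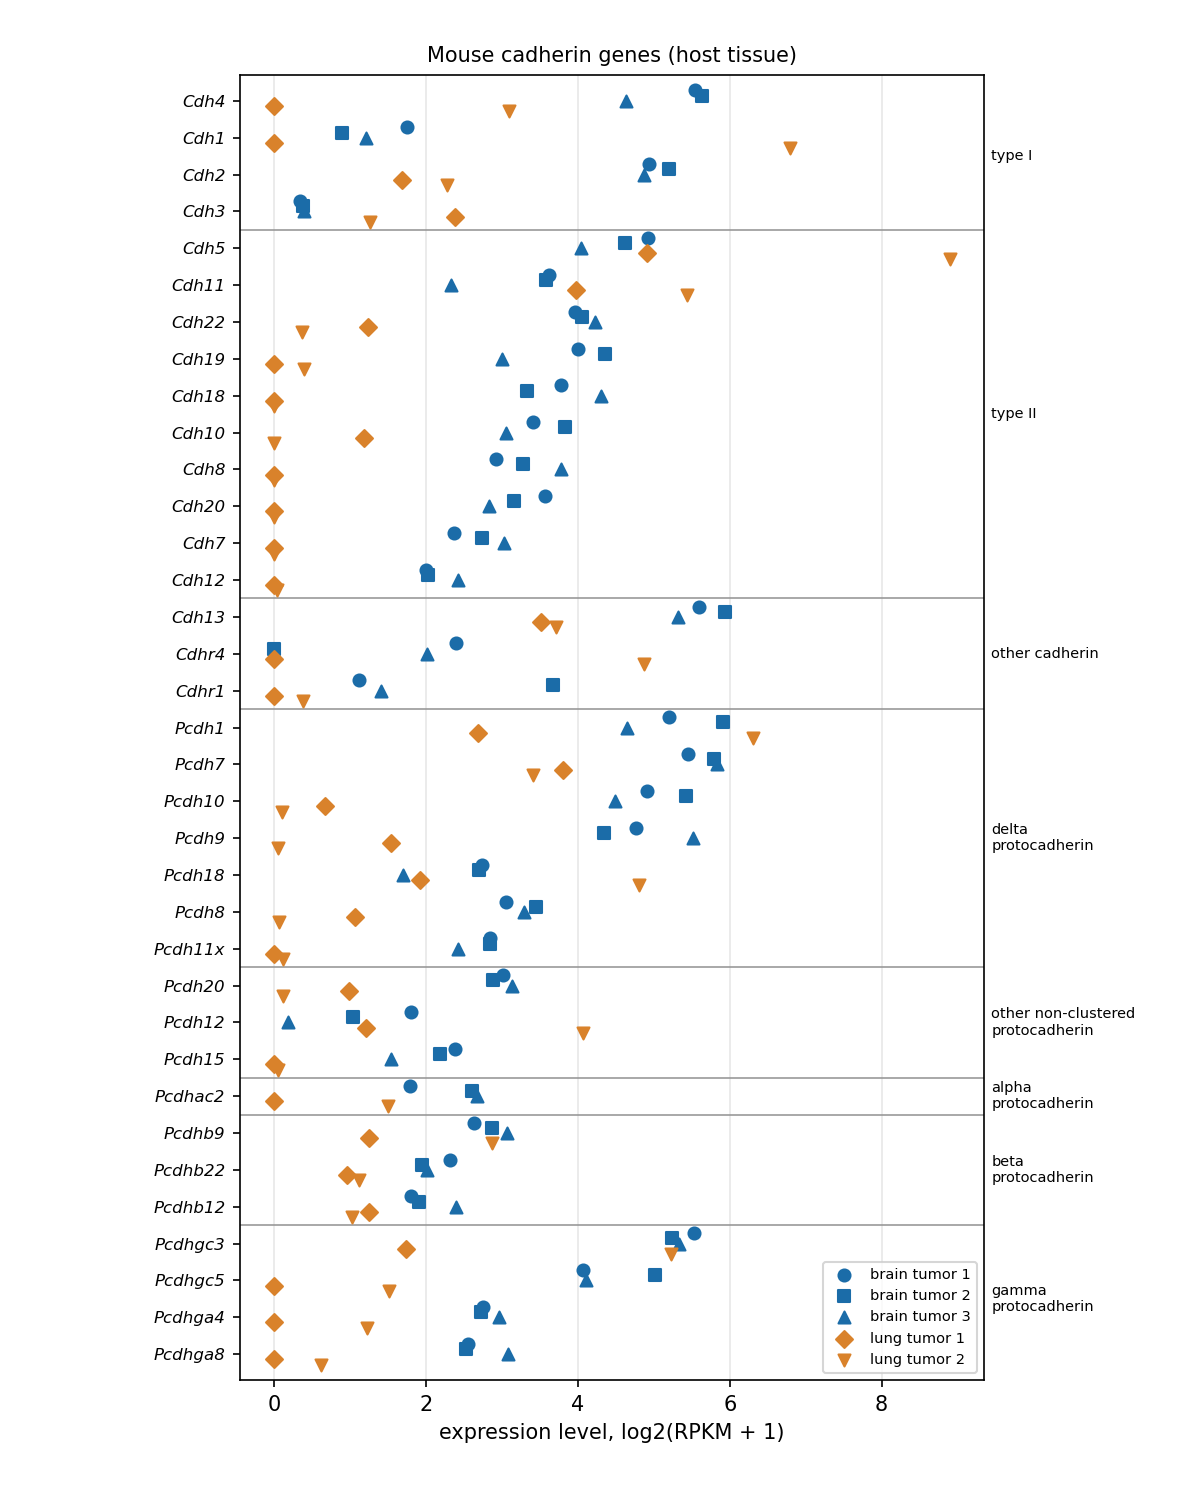
Levels of tested mouse members picked by class, level and size of change, as log2(RPKM + 1), with 1 symbol per library: 3 brain tumors (blue) and 2 lung tumors (orange), grouped by class. Cdh18, Cdh8, Cdh20 and Cdh7 lie well above 0 in all brain tumors and at 0 in both lung tumors, while Cdh5, Cdh1, Cdh11, Pcdh12, Pcdh18 and Cdhr4 are highest in lung tumor 2.

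Among type II cadherins 8 of 13 tested genes rose, beside 14.3% of all tested mouse genes. All 8 are members whose textbook place is the nervous system. Of the 13 genes 7 had passed the filter through the brain tumors only, so the count does not describe the class. Cdh18 (ENSMUSG00000040420.14) had 12.8, 9.07 and 18.8 RPKM in brain tumors, against 0 RPKM in both lung tumors. Cdh8 (ENSMUSG00000036510.17), a marker of particular cortical and thalamic circuits, had 6.61, 8.73 and 12.7 RPKM in brain tumors, and Cdh20 had 10.9, 7.94 and 6.13 RPKM there, against 0 RPKM in both lung tumors for each gene. The fold is a lower bound with 3 reads in each lung library as the floor, which is large in lung tumor 1: Cdh18 was at least 3.83-fold higher, Cdh8 at least 4.56-fold and Cdh20 at least 5.05-fold. Their limma adjusted p-values were 0.00393, 0.00523 and 0.00533, and at most 0.0478 in all alternatives tried. Cdh7, which is expressed in groups of neurons and in neural crest, had 4.19, 5.70 and 7.20 RPKM in brain tumors and 0 in both lung tumors (limma adjusted p = 0.0081), and here the floor of lung tumor 1, at 11.3 RPKM, lay above the brain tumors and allows no bound.

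Other type II genes had a few reads in lung tumors. Cdh22 (ENSMUSG00000053166.14), a cadherin enriched in brain, had 14.6, 15.6 and 17.8 RPKM in brain tumors, against 1.35 RPKM in lung tumor 1, from 1 read, and 0.297 RPKM in lung tumor 2, from 5 reads. The brain tumors were close to each other and far above both lung tumors, with a mean of 16.0 ± 1.62 RPKM in brain tumors (SD, n = 3), of 0.826 ± 0.748 RPKM in lung tumors (SD, n = 2) and a fitted log2 difference of 3.28 (SE 0.44, limma adjusted p = 0.00564). Cdh19, known from Schwann cells and other glia, had 15.0, 19.6 and 6.99 RPKM in brain tumors and 0 and 0.315 RPKM in lung tumors, and brain tumor 3 was the lowest of the brain tumors (log2 fold change 3.59, SE 0.54, limma adjusted p = 0.00821). Cdh10 had 9.64, 13.2 and 7.30 RPKM in brain tumors and 1.28 and 0 RPKM in lung tumors (log2 fold change 2.84, SE 0.53). Cdh12 had 3.00, 3.07 and 4.34 RPKM in brain tumors and 0 and 0.0328 RPKM in lung tumors (log2 fold change 2.12, SE 0.38). Cdh10 and Cdh12, both found in brain, did not overlap between the groups, with limma adjusted p of 0.016 and 0.0138. Cdh10 lost its call without brain tumor 1 (0.066), 2 (0.076) or 3 (0.0587), and Cdh12 lost it without brain tumor 2 (0.0534).

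Of the 5 type I genes Cdh2 and Cdh4 rose, beside 14.3% of all tested mouse genes, and 1 of the 5 had passed the filter through the brain tumors only. Cdh2 (ENSMUSG00000024304.14), which joins neural cells at synapses and in the ventricular lining, had 29.6, 35.7 and 28.1 RPKM in brain tumors, against 2.23 RPKM in lung tumor 1, from 2 reads, and 3.86 RPKM in lung tumor 2, from 79 reads. Its mean was 31.2 ± 4.01 RPKM in brain tumors (SD, n = 3) and 3.04 ± 1.15 RPKM in lung tumors (SD, n = 2), and the fitted log2 difference was 3.01 (SE 0.38, limma adjusted p = 0.00441). Cdh4, the R-cadherin of retina and brain, had 45.4, 48.8 and 23.8 RPKM in brain tumors, against 0 and 7.56 RPKM in lung tumors. Brain tumor 3 was lower than the other brain tumors but above both lung tumors (log2 fold change 3.72, SE 0.93, limma adjusted p = 0.0387), and the call was lost without brain tumor 1 (0.125), 2 (0.136) or 3 (0.11). Cdh15, the M-cadherin of muscle and cerebellar granule cells, had 1.27, 1.12 and 2.83 RPKM in brain tumors and 0 and 0.13 RPKM in lung tumors and did not pass (adjusted p = 0.0779).

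Of the 9 delta protocadherins of the host 6 rose, beside 14.3% of all tested mouse genes, and 2 of the 9 had passed the filter through the brain tumors only. The median log2 fold change was 2.16 over the 9 genes, against 2.72 over the 13 type II genes. Pcdh10 (ENSMUSG00000049100.15), which guides axons of the forebrain and thins out synapses, had 29.2, 42.0 and 21.5 RPKM in brain tumors, against 0.595 RPKM in lung tumor 1, from 1 read, and 0.0783 RPKM in lung tumor 2, from 3 reads. The groups lay far apart, with a log2 fold change of 4.55 (SE 0.46), the largest of any member, and its adjusted p was 0.00253 (limma) and at most 0.0265 in all alternatives tried. Pcdh9 (ENSMUSG00000055421.8), found at synapses of cortex and hippocampus, had 26.1, 19.3 and 44.7 RPKM in brain tumors and 1.91 and 0.042 RPKM in lung tumors. Brain tumor 3 was the highest, and no lung tumor came near (log2 fold change 4.07, SE 0.62, limma adjusted p = 0.00833, and 0.0504 without brain tumor 3).

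Pcdh7 (ENSMUSG00000029108.14), a member of both compartments, had 42.7, 54.4 and 56.2 RPKM in the host of the brain tumors, against 13.0 and 9.66 RPKM in the host of the lung tumors. Its mean was 51.1 ± 7.36 RPKM in brain tumors (SD, n = 3) and 11.3 ± 2.33 RPKM in lung tumors (SD, n = 2), and the fitted log2 difference was 2.08 (SE 0.32, limma adjusted p = 0.00899). Its call was lost without brain tumor 2 (0.0672) or 3 (0.0542). Pcdh8, which neurons make when active, had 7.30, 9.92 and 8.83 RPKM in brain tumors and 1.09 and 0.048 RPKM in lung tumors (log2 fold change 2.70, SE 0.47, adjusted p = 0.0127). Pcdh11x, an X-linked gene of brain, had 6.17, 6.18 and 4.39 RPKM in brain tumors and 0 and 0.0833 RPKM in lung tumors (log2 fold change 2.65, SE 0.39, adjusted p = 0.00771). Pcdh8 lost its call without brain tumor 1 (0.0513), 2 (0.0672) or 3 (0.0618), while Pcdh11x kept it with each library left out. Pcdh19, which in humans is mutated in a girls' epilepsy syndrome, had 7.43, 8.09 and 6.38 RPKM in brain tumors and 2.40 and 0.894 RPKM in lung tumors, and rose by a log2 fold change of 1.71 (adjusted p = 0.043). That call was lost without brain tumor 1 (0.133), 2 (0.158) or 3 (0.113).

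Pcdh17, Pcdh1 and Pcdh18 were the delta genes of the host that did not pass. Pcdh17 had 10.1, 9.40 and 7.74 RPKM in brain tumors and 0 and 4.03 RPKM in lung tumors (adjusted p = 0.0841). Pcdh1 had 35.6, 59.2 and 24.1 RPKM in brain tumors, against 5.42 RPKM in lung tumor 1 and 78.1 RPKM in lung tumor 2, so the lung tumors spanned the brain tumors (log2 fold change 0.76, SE 1.06, limma adjusted p = 0.633). That sign turned to -1.05 without lung tumor 1 and to -0.18 with voom.

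Among the remaining non-clustered members of the host, Cdh13, Pcdh20 and Pcdh15 rose. Cdh13 (ENSMUSG00000031841.18), made by neurons and vascular cells, had 47.5, 60.02 and 38.9 RPKM in brain tumors, against 10.4 RPKM in lung tumor 1, from 4 reads, and 12.1 RPKM in lung tumor 2, from 106 reads. The lung tumors were close to each other and below all brain tumors (log2 fold change 2.01, SE 0.33, limma adjusted p = 0.0111), and the call was lost without brain tumor 1 (0.0609) or 2 (0.0762). Pcdh20 had 7.12, 6.39 and 7.75 RPKM in brain tumors and 0.98 and 0.086 RPKM in lung tumors (log2 fold change 2.46, SE 0.44, limma adjusted p = 0.0141). Pcdh15, part of the tip links of hair cells, had 4.24, 3.55 and 1.91 RPKM in brain tumors and 0 and 0.0351 RPKM in lung tumors (log2 fold change 2.01, SE 0.43, adjusted p = 0.024). Both lay above both lung tumors in every brain tumor, Pcdh20 lost its call without brain tumor 1 (0.0604), 2 (0.0648) or 3 (0.0637), and Pcdh15 without brain tumor 1 (0.0704) or 2 (0.0834). Cdhr1, a cadherin-related gene of photoreceptors and olfactory neurons, had 1.17, 11.8 and 1.66 RPKM in brain tumors and 0 and 0.301 RPKM in lung tumors, so brain tumor 2 alone was high and the test was not passed (adjusted p = 0.156).

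All 40 tested clustered protocadherins of the host had a positive log2 fold change, beside 52.5% of all tested mouse genes. Of the 40 genes 16 had passed the filter through the brain tumors only, so their sign says little. The genes that rose numbered 7, near the share of 14.3% over all tested mouse genes. Pcdhgc5 (ENSMUSG00000102543.5), a C-type gene of the gamma cluster, had 15.8, 31.5 and 16.2 RPKM in brain tumors, against 0 RPKM in lung tumor 1 and 1.87 RPKM in lung tumor 2, from 27 reads. The brain tumors were all above the lung tumors by a wide gap (log2 fold change 3.64, SE 0.62, limma adjusted p = 0.0117), and the call was lost without brain tumor 2 (0.0609) or 3 (0.0585). Pcdhgc3 (the mouse gene of the main human gamma member) had 45.1, 36.7 and 39.4 RPKM in brain tumors, against 2.35 RPKM in lung tumor 1, from 2 reads, and 36.3 RPKM in lung tumor 2, from 705 reads. Lung tumor 2 lay just under brain tumor 2, and the difference did not pass (log2 fold change 1.88, SE 0.97, limma adjusted p = 0.21).

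The other called clustered genes were Pcdhga4, Pcdhga7, Pcdhgb1, Pcdhb13 and both entries named Pcdhga8. Pcdhga4 had 5.74, 5.62 and 6.81 RPKM in brain tumors and 0 and 1.34 RPKM in lung tumors (log2 fold change 2.20, SE 0.50, limma adjusted p = 0.0288). Pcdhga8 (ENSMUSG00000023036.14) had 4.88, 4.75 and 7.50 RPKM in brain tumors and 0 and 0.537 RPKM in lung tumors, and the second entry (ENSMUSG00000103897.1) had 2.52, 3.45 and 3.21 RPKM in brain tumors and 0 and 0.508 RPKM in lung tumors. These 6 calls were lost without brain tumor 1, 2 or 3 (limma adjusted p of 0.0526 to 0.124), and Pcdhb13, Pcdhgb1 and the second Pcdhga8 also without lung tumor 1. As in the human genome, the gamma genes share 3' exons, so neighbours may share reads. Without brain tumor 1, 2 or 3 the clustered calls numbered 1, 0 and 0 of 39, 36 and 37 tested genes. In the same fits 8.06%, 7.02% and 7.35% of all tested genes rose.

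The remaining clustered genes of the host gave fewer calls. Of the alpha genes 12 of 13 were not tested, and Pcdhac2, the C-type alpha gene of serotonin neurons, had 2.45, 5.07 and 5.41 RPKM in brain tumors and 0 and 1.82 RPKM in lung tumors (adjusted p = 0.109). Of the beta genes 19 of 22 were tested, and Pcdhb9, Pcdhb22 and Pcdhb12 were the highest of them. Pcdhb9 had 5.19, 6.32 and 7.42 RPKM in brain tumors and 1.38 and 6.29 RPKM in lung tumors, Pcdhb22 had 3.98, 2.87 and 3.04 RPKM in brain tumors and 0.95 and 1.17 RPKM in lung tumors. Pcdhb9 overlapped between the groups and Pcdhb22 did not, with limma adjusted p of 0.354 and 0.102. Over all clustered genes lung tumor 1 had 12 reads, against 1711 in lung tumor 2 and 1540 to 5625 in brain tumors.

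The log2 fold change was negative in 7 tested mouse members, and 0 of them passed the test. Lung tumor 2 was the highest library in 6 of them and lung tumor 1 in Cdh3. Cdh5, the VE-cadherin of endothelium, had 29.4, 23.7 and 15.4 RPKM in the host of the brain tumors, against 29.1 RPKM in lung tumor 1 and 477 RPKM in lung tumor 2. Lung tumor 1 lay among the brain tumors, and the log2 fold change was -2.38 (SE 1.12, limma adjusted p = 0.176, and 0.000688 without lung tumor 1). The endothelial markers Pecam1, Cldn5, Tek, Kdr, Flt1 and Emcn summed to 237, 186 and 124 RPKM in brain tumors, against 177 RPKM in lung tumor 1 and 1049 RPKM in lung tumor 2. Like Cdh5, their sum was highest in lung tumor 2 and in lung tumor 1 lay among the brain tumors. Tek, Kdr and Flt1 did so too. In lung tumor 1, however, Emcn was highest, at 34.2 RPKM, Cldn5 was lowest, at 17.9 RPKM, and Pecam1 was just above the brain tumors, at 36.6 RPKM. The part of these markers in the level of Cdh5 was not tested.

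Cdh1, the E-cadherin of epithelium, had 2.36, 0.87 and 1.31 RPKM in the host of the brain tumors, against 0 RPKM in lung tumor 1 and 110 RPKM in lung tumor 2, from 1900 reads. Lung tumor 2 stood far above the other libraries in Cdh1, and the 0 of lung tumor 1 came from a library with 231044 mouse reads in all. The lung epithelial markers summed above the brain tumors in both lung tumors. In lung tumor 1, though, Sftpd was at 0 and Hopx, at 27.7 RPKM, lay among the brain tumors. The log2 fold change of Cdh1 was -2.11 (SE 1.86, limma adjusted p = 0.443). It was 1.29 without lung tumor 2, and Cdh1 passed without lung tumor 1 (adjusted p = 0.000585). Cdh11, of mesenchymal cells, had 11.3, 10.9 and 4.03 RPKM in brain tumors and 14.7 and 42.4 RPKM in lung tumors. Its groups did not overlap, and the fitted log2 difference was -1.53 (SE 0.64, limma adjusted p = 0.139, and 0.0303 without lung tumor 1). Markers of fibroblasts and mural cells summed to 246 to 856 RPKM in brain tumors and to 13050 and 6384 RPKM in lung tumors. Col1a1 alone gave 10040 and 4765 RPKM of the lung sums. Rgs5 went the other way in lung tumor 2, at 17.7 RPKM against 82.8 to 176 RPKM in brain tumors. The sum was higher in lung tumor 1, while Cdh11 was higher in lung tumor 2, and the part of these markers in its level was not tested.

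Cdh3, Pcdh12, Pcdh18 and Cdhr4 completed the members with a negative log2 fold change. Cdh3 had 0.272, 0.301 and 0.314 RPKM in brain tumors and 4.24 and 1.40 RPKM in lung tumors, with no overlap (log2 fold change -1.45, SE 0.46, limma adjusted p = 0.0726). Pcdh12, of endothelium, had 2.50, 1.07 and 0.143 RPKM in brain tumors and 1.33 and 15.8 RPKM in lung tumors, and Pcdh18 had 5.71, 5.52 and 2.25 RPKM in brain tumors and 2.78 and 27.1 RPKM in lung tumors. Cdhr4 had 4.25, 0 and 3.06 RPKM in brain tumors and 0 and 28.4 RPKM in lung tumors. In these 3 genes lung tumor 2 was the highest library, with limma adjusted p of 0.257 to 0.672. The listed value of lung tumor 1 lay within the range of the brain tumors, but its place is uncertain at this depth. In lung tumor 1 Pcdh18 had 1 read and Cdhr4 had 0, and 3 reads would be 8.35 and 21.3 RPKM, above every brain tumor. Cdhr3 was not tested, with 0.135 to 0.652 RPKM in brain tumors, 0 in lung tumor 1 and 12.1 RPKM in lung tumor 2.

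Genes of the same symbol were set side by side in the cancer cells and the host. The 25 symbols called in the host include 18 with a human gene of the same symbol, and 11 of these human genes (61.1%) were under 1 RPKM in every brain tumor, close to the 59.3% of all human members. The other 7 were tested, and all 7 had a positive log2 fold change with 0 called. So did 26 of the 31 tested human members and 55.6% of all tested human genes. CDH2, CDH19 and PCDHGA7, which are among the 7, passed the filter through the brain tumors only, so their sign says little. Over 74 symbols shared by both tables, the mouse gene had over 10 times the RPKM of the human gene in every brain tumor in 17, beside 12.4% of 13244 shared symbols over all genes. Pcdh10 was among them, with 29.2, 42.0 and 21.5 RPKM in the host, while PCDH10 stood at 0.0253 RPKM in brain tumor 1 and 0 in the others. The tables were scaled apart, so levels are compared between them only in this coarse way. In the other direction CDH11 and PCDHB2 led in the cancer cells at 486 to 1253 and 181 to 233 RPKM in brain tumors, while the host genes stood at 4.03 to 11.3 RPKM for Cdh11 and 1.08 to 2.93 RPKM for Pcdhb2. Both compartments had PCDH7, at 77.5 to 101 RPKM for the human and 42.7 to 56.2 RPKM for the mouse gene in brain tumors, and PCDHGC3, at 25.3 to 31.0 and 36.7 to 45.1 RPKM.

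**Figure D4:**
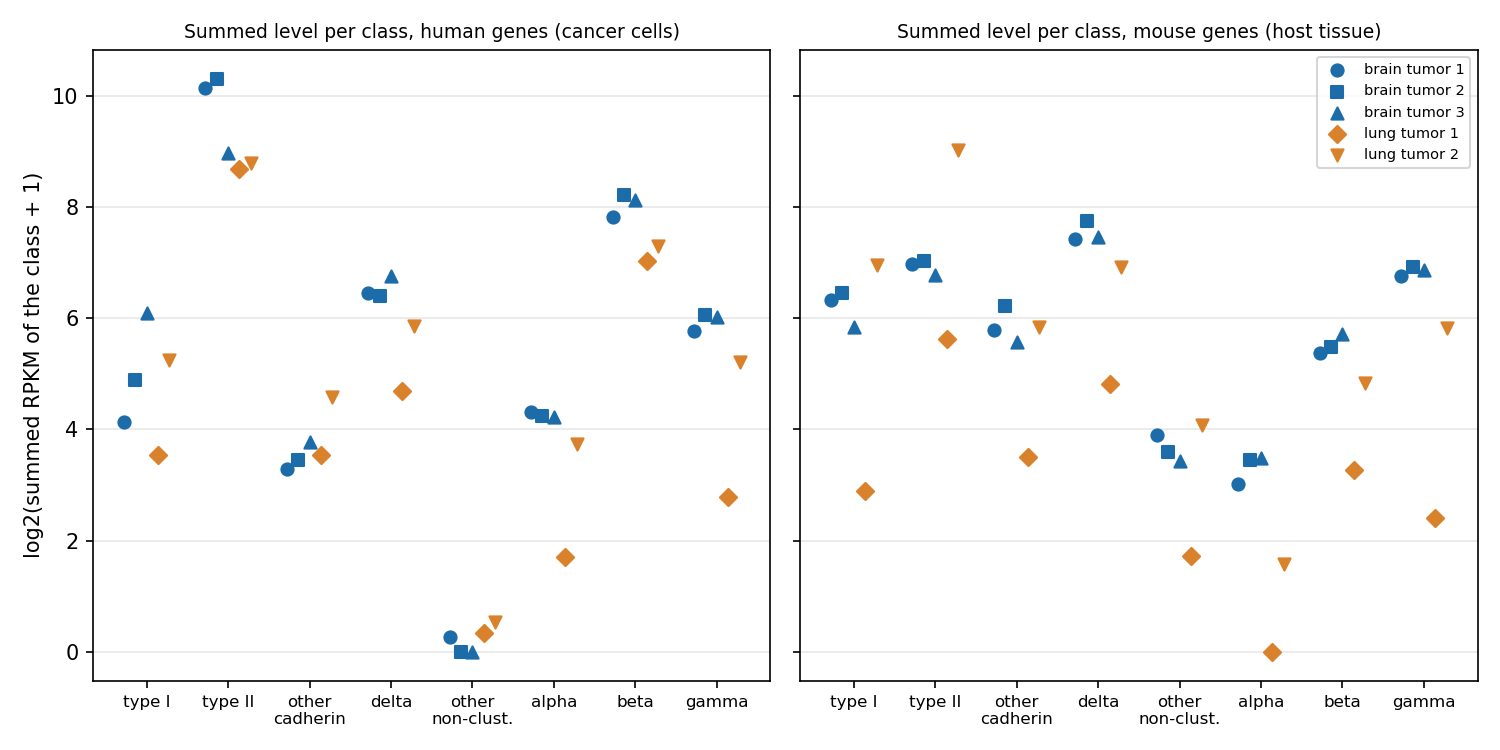
Summed RPKM of the members of each class as log2(sum + 1), for human genes (left) and mouse genes (right), with 1 symbol per library (brain tumors blue, lung tumors orange). Type II and beta members lead in the cancer cells, delta, type II and gamma members in the brain tumor hosts, and lung tumor 1 is lowest in every mouse class.

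Genes that work with cadherins were read in the same fits. Of 39 human partner genes 33 were tested and 0 passed, while 7 were higher and 0 lower at an unadjusted p under 0.05, where 6.16% and 4.36% of all tested genes were. CTNNA1 and CTNNB1, catenins that carry the junction, were expressed in all libraries. CTNNA1 had 1313, 1117 and 1677 RPKM in brain tumors and 887 and 1162 RPKM in lung tumors. CTNNB1 had 400, 401 and 473 RPKM in brain tumors and 267 and 461 RPKM in lung tumors. Both overlapped between the groups, with log2 fold changes of 0.41 (SE 0.38) and 0.27 (SE 0.36). CTNND1, the p120 catenin that keeps cadherins at the surface, had 55.9, 55.5 and 53.1 RPKM in brain tumors and 13.5 and 43.9 RPKM in lung tumors. Its fitted log2 difference was 1.13 (SE 0.48, limma adjusted p = 0.474). Other genes of this list went the other way. CTNNAL1 had 205, 199 and 198.5 RPKM in brain tumors and 312 and 310 RPKM in lung tumors (log2 fold change -0.63, SE 0.30, limma adjusted p = 0.485). JUP had a log2 fold change of -0.15 (SE 0.38). CTNNA3 stood at 1.15 RPKM or less, and CTNNA2 and CTNND2 were not tested. Without lung tumor 2, 13 of the 32 human partners tested there passed, all of them higher, where 10.1% of all tested genes were called higher. ZEB1, a repressor of CDH1, had 12.7, 18.6 and 11.01 RPKM in brain tumors and 3.36 and 11.9 RPKM in lung tumors (log2 fold change 0.98, SE 0.54). Of the other repressors tested, TWIST1 had a log2 fold change of 0.57 (SE 0.36) and SNAI1 of -0.26 (SE 0.46). The median log2 fold change of the partners was 0.57, against 0.09 over all tested human genes.

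In the host 39 of 45 partner genes were tested, 8 rose and 4 fell, beside 14.3% and 8.12% of all tested mouse genes. The neural catenins Ctnna2 and Ctnnd2 rose by log2 fold changes of 4.25 (SE 0.58) and 3.94 (SE 0.43). Ctnna2 had 32.9, 39.2 and 43.0 RPKM in brain tumors and 2.75 and 0.12 RPKM in lung tumors, with a limma adjusted p of 0.006. Of 12 tested genes in a list of other cadherin superfamily members and linked genes 6 rose, at limma adjusted p of 0.00126 to 0.0394. They were Celsr2, Celsr3, Clstn1, Clstn2, Clstn3 and the linked gene Fjx1. Celsr3, which guides axon tracts, had 85.2, 137 and 164 RPKM in brain tumors and 0 and 3.48 RPKM in lung tumors, and the synaptic calsyntenin Clstn3 had 441, 411 and 554 RPKM in brain tumors and 11.6 and 4.57 RPKM in lung tumors. The genes that fell were Ctnnd1, Nectin2, Snai1 and Snai2. Ctnnd1 had 3.57, 3.81 and 2.60 RPKM in brain tumors and 13.7 and 15.1 RPKM in lung tumors (log2 fold change -1.84, SE 0.39, limma adjusted p = 0.0233). Snai2, a repressor of Cdh1 in mesenchymal cells, had 0, 0.294 and 0.112 RPKM in brain tumors and 6.23 and 6.10 RPKM in lung tumors, and fell by 2.67 on the log2 scale (SE 0.37, limma adjusted p = 0.00633). Without brain tumor 1, 2 or 3, 5 partners were called higher each time (8.06%, 7.02% and 7.35% of all tested genes) and 3, 1 and 1 lower (2.89%, 1.27% and 1.74%). Without lung tumor 1 the calls numbered 17, 9 of them lower (31.0% and 14.0% of all tested genes), and without lung tumor 2 they numbered 23, of which 17 were higher (55.0% and 35.0%).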

How the data were processed

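RNA sequencing libraries of 3 brain and 2 lung tumors were used. The authors deposited RPKM (reads relative to gene length and depth) in 1 human and 1 mouse table. The submitters' processing notes name hg38 and GRCh38 for human, mm10 and GRCm38 for mouse. Which aligner and counter were run, with which gene lengths, strand setting and way of telling human from mouse reads, is not given in the sources used here. Libraries were grouped by their labels, and 0 per-sample columns were left unused.

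Read numbers were worked back from the deposited RPKM, because the values of 1 gene, once each library has its own factor, are whole multiples of the same step. All 25524 human and 24628 mouse genes came out whole within 1e-06 reads. Totals obtained this way are lower bounds. Genes seen in a single library, 4393 human and 3995 mouse, have no fixed read number. Reads were used to give depth and in limma-voom. Human coordinates were taken from RefSeq (GRCh38.p14), in which all 86 human members matched by symbol, and no mouse coordinates were used.

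A gene was fitted if 2 or more libraries reached an RPKM of 1, as log2(RPKM + 1) with limma 3.58.1 in R 4.3.3 (eBayes with trend), brain minus lung, per species. P-values were from both directions, Benjamini-Hochberg adjusted over all tested genes of a species, with calls at 0.05. The pseudocount of 1 understates changes of low genes. With 3 and 2 libraries the smallest exact permutation p is 0.2, so that test was not used. The fit was tested on simulated data. Named were up to 20 called members per species, the 3 highest members of each class, the 6 members with the largest change in each direction, CDH1, CDH2, CDH3, CDH5 and CDH13, and same-symbol genes. A few other members were named after their values were seen. Alternatives were other pseudocounts, filters, scalings and eBayes settings, voom, gene-length correction, the replicate number as a block, and leaving out each library. The members and lists were chosen with earlier results of these data known.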

Additional observations from a re-analysis of the deposited data

How the results depend on the processing

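Of the 327 repeats for the 21 named human members that were tested, 311 kept their direction and side of the threshold, 8 gained a call and 8 changed sign. Of the 548 repeats for 35 named mouse members, 472 kept both, 54 lost a call, 16 gained one and 6 changed sign. The human count of called members was 0 in all alternatives but 1, and ran from 0 to 8 when libraries were left out, with 8 without lung tumor 2. The mouse count of 26 was 15 without a filter (6.56% of all genes called higher) and 10 with the replicate block (7.41%), ran from 10 to 50 when libraries were left out, and was 19 to 33 in the other settings. The gene-length correction gave 19 higher and 1 lower, and voom 28 higher and 5 lower. The replicate block called 0 human members. The labels pair no brain with a lung tumor, and the deviations of same-numbered libraries correlated at -0.0821 and 0.0591 for human and 0.0347 and 0.0502 for mouse genes, over 2 pairs. On the log2 scale, leaving out 1 library turned the sign of CDH1 (lowest to highest -0.17 to 2.23), CDH4 (-0.28 to 1.504), CDH5 (-2.89 to 0.52), PCDHB9 (-0.31 to 0.25), Cdh1 (-5.50 to 1.29), Cdhr4 (-3.40 to 1.47), Pcdh18 (-2.43 to 0.46), Pcdh1 (-1.05 to 2.57) and Pcdhb9 (-0.008 to 1.61). CDH1, CDH4, Pcdh1 and Pcdhb9 turned without lung tumor 1, and CDH5, Cdh1, Cdhr4 and Pcdh18 without lung tumor 2. PCDHB9 did so without lung tumor 2 and without brain tumor 1 or 3, and was 0.0252 with voom and 0.0201 with the replicate block. Pcdh1 was -0.18 with voom. The cause of these moves was not tested. Scaling moved the median log2 fold change of all genes by over 0.1: it was 0.09 as deposited and -0.03 with median-ratio scaling in human genes, and 0.08, 0.22, -0.11 with quantile normalization and -0.15 with voom in mouse genes. The members' median stayed above it in each of these, at 0.83 for human and 1.39, 0.56 and 1.63 for mouse members. Depth limits the mouse values of lung tumor 1 most.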
